A study of Mus musculus with 2 samples.

Results

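Tumour-infiltrating lymphocytes were examined for 8 receptor genes that set how strongly T and NK cells answer costimulation and interleukin-2: Tnfrsf4 (OX40), Tnfrsf9 (4-1BB), Tnfrsf18 (GITR), Icos, Cd28, Il2ra (CD25), Il2rb (CD122) and Il2rg (CD132). They were chosen by symbol out of 27998 genes, and all 8 were present in both count tables. Their UMIs (barcode-tagged transcripts, so that copies of 1 transcript made by PCR count once) were followed in 547 of 6198 cells, which 4 gates took as CD8 T, regulatory-like T, other T and NK cells. No receptor gene of the 8 entered a gate.

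The cells were CD45+ leukocytes, isolated on magnetic beads from tumours that TSA mammary adenocarcinoma cells formed under the skin of Balb/c mice. One group of mice was untreated, and the other drank water with 0.5% NAM (nicotinamide, a form of vitamin B3) for 10 days. Each group gave 1 library made from the pooled tumours of 3 mice, so mice cannot be told apart within a library, no difference between the groups has a replicate check, and NAM and library preparation cannot be told apart. No test was made. Levels are in CPM, the UMIs of a gene summed over a gate, divided by all UMIs of that gate and multiplied by 1e+06, and every interval is an exact 95% interval for counting error only.

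OX40, 4-1BB and GITR belong to the tumour necrosis factor receptor family, bind ligands on antigen-presenting cells and signal through TRAF adaptors to NF-kB. CD28 and ICOS are immunoglobulin-family receptors that add to the T-cell receptor signal, CD28 by binding CD80 and CD86 and ICOS by binding ICOS ligand. The interleukin-2 receptor is built from an alpha chain that raises affinity (CD25), a beta chain shared with the interleukin-15 receptor (CD122) and the common gamma chain used by several cytokine receptors (CD132). Regulatory T cells are known for high CD25, OX40, GITR and ICOS, and NK cells for CD122.

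The gates held 96 and 152 CD8 T cells, 70 and 67 regulatory-like T cells, 18 and 24 other T cells, and 80 and 40 NK cells in the untreated and the NAM library. A T cell had a UMI of Cd3e and none of Ncr1, a CD8 T cell also had a UMI of Cd8a or Cd8b1, a regulatory-like T cell had neither of these but a UMI of Foxp3 or Ikzf2, an other T cell had none of these, and an NK cell had a UMI of Ncr1 and none of Cd3e. Median depth per gated cell was 4239 to 5289.5 UMIs. The NK gate was 2.74% (2.18 to 3.40) of the untreated and 1.22% (0.874 to 1.66) of the NAM library. The 6 regulatory markers summed to 1839 and 1858 CPM in regulatory-like cells against 409 and 521 CPM in CD8 T cells. Most of the former came from the 2 gate genes, Ikzf2 (1135 and 1062 CPM) and Foxp3 (195 and 165 CPM), and was thus set by the gate. Of the others, Ctla4 was at 434 and 536 CPM against 134 and 175 CPM in CD8 T cells. Lrrc32 was at 43.7 and 49.0 against 1.97 and 4.89 CPM, and Ccr8 at 25.7 and 36.1 against 3.95 and 9.78 CPM. Tigit was at 5.14 and 10.3 against 7.89 and 4.89 CPM. The 10 NK markers, with the gate gene Ncr1 among them, summed to 4251 and 7314 CPM in the NK gate. There the T-cell markers summed to 1079 and 1526 CPM. Cd3g was found in 20% and 22.5% of NK-gate cells, Cd3d in 7.5% and 12.5%, and Cd4 and Cd40lg in none. The other T gate stood apart from its label between libraries: its T-cell markers summed to 3612 CPM in the untreated and 1425 CPM in the NAM library, and 1 of 18 against 7 of 24 of its cells held more than 15000 UMIs. The libraries shared 11 barcodes, none of them gated in both.

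All 8 genes are protein coding (GENCODE vM21, GRCm38). Tnfrsf4 (chr4:156013843-156016612, plus strand) and Tnfrsf18 (chr4:156026164-156028895, plus strand) are neighbours 9551 bases apart, with Tnfrsf9 on the same chromosome at chr4:150914562-150946102. Cd28 (chr1:60716800-60773359) and Icos (chr1:60977927-61000320) lie 204567 bases apart, with Ctla4 between them. Il2ra lies at chr2:11642807-11693193, Il2rb at chr15:78479256-78495271 on the minus strand and Il2rg at chrX:101264378-101268255 on the minus strand. Il2rg lies within the annotated Gm20489 on the same strand, which had 0 UMIs in both libraries. Whether reads shared by both genes were left out of the Il2rg counts is not given in the sources used here, so its levels may be too low.

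Upstream sequence is shown for Il2ra and Tnfrsf4, which were past 2-fold higher in regulatory-like than in CD8 T cells and again in the cells of that gate with Foxp3, and for Tnfrsf9, which was found in T, NK and some myeloid cells. The windows are from RefSeq on build GRCm38.p6, lie within the 250 bases before an annotated start and leave out bases in any GENCODE exon. Capitals mark matches, on either strand, to 3 words, NF-kB (GGG, any 2 bases, T, any 2 bases, CC), TTCNNNGAA (STAT) or TGTTTNC (forkhead). TGANTCA (AP-1) was searched too.
Il2ra, chr2:11642542-11642791, plus strand: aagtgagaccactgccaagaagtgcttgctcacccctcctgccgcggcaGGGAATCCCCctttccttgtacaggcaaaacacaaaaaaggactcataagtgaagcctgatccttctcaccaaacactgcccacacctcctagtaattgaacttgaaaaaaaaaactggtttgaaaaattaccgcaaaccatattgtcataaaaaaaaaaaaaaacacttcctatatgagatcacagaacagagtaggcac
Tnfrsf9, second of 2 RefSeq starts, chr4:150927749-150927917, plus strand: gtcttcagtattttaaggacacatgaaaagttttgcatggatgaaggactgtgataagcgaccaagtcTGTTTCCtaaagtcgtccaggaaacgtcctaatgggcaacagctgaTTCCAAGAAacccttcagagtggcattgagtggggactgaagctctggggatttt
Tnfrsf4, chr4:156013611-156013694, plus strand: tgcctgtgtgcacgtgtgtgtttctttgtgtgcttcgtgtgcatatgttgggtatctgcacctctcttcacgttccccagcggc

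The Il2ra window held the NF-kB word at 201 to 192 bases before the start. The Tnfrsf9 window held the STAT word at 136 to 128 and the forkhead word at 182 to 176 bases before the start, and closer to the start, in bases annotated as exon, the NF-kB word GGGATTTCCC (42 to 33, with an overlapping match 1 base upstream) and the AP-1 word TGAGTCA (15 to 9). Tnfrsf18 had the STAT word TTCACAGAA in annotated exon 99 to 91 bases before its RefSeq start. Over the full 250 bases, Tnfrsf4, Il2rg and the first RefSeq start of Tnfrsf9 had no match to these 4 words. Of 32851 such windows of mouse genes, 15.9% held the NF-kB word, 6.75% the AP-1 word, 7.02% the STAT word and 17.8% the forkhead word. A match is a description of letters and not a site shown to be used. The short Tnfrsf4 stretch is all that lies between its RefSeq start and the end of Sdf4, a gene that returns below.

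The TNF receptor genes were highest in regulatory-like T cells in both libraries. Tnfrsf4, which encodes OX40, was measured at 1554 CPM (1432 to 1683) in the untreated and 1729 CPM (1601 to 1865) in the NAM library in regulatory-like cells. In CD8 T cells it was at 239 CPM (198 to 285) and 361 CPM (321 to 404), and in other T cells at 414 CPM (301 to 556) and 200 CPM (145 to 268). The NK gate held 3 and 2 UMIs of Tnfrsf4 in all, 5.19 CPM (1.07 to 15.2) and 9.51 CPM (1.15 to 34.3). Intervals of neighbouring gates did not overlap in either library, but CD8 and other T cells changed places in the order between them.

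Tnfrsf9, the gene of 4-1BB, followed the order regulatory-like, CD8, NK and other T cells in both libraries, with no overlap between neighbours. Its levels were 1852 CPM (1719 to 1992) and 1657 CPM (1531 to 1790) in regulatory-like cells and 811 CPM (735 to 893) and 1087 CPM (1016 to 1161) in CD8 T cells. NK cells carried 547 CPM (489 to 611) and 684 CPM (577 to 806), and other T cells 282 CPM (190 to 403) and 154 CPM (107 to 216). Unlike Tnfrsf4, Tnfrsf9 was thus well detected in the NK gate. A single NK cell held 37 of the 316 untreated Tnfrsf9 UMIs and another 32 of the 144 in the NAM library.

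Tnfrsf18, the gene of GITR, was at 1181 CPM (1076 to 1294) and 1314 CPM (1203 to 1433) in regulatory-like cells, apart from every other gate. CD8 T cells had 369 CPM (318 to 426) and 495 CPM (448 to 546) and NK cells 327 CPM (282 to 377) and 385 CPM (306 to 478), so these 2 gates overlapped in both libraries. Other T cells had 357 CPM (253 to 491), which overlapped with both, and 218 CPM (161 to 289), which was below both.

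Of the immunoglobulin-family receptors, Icos was highest in regulatory-like cells and Cd28 was not. Icos was at 578 CPM (505 to 658) and 451 CPM (387 to 523) in regulatory-like cells, 241 CPM (200 to 287) and 276 CPM (241 to 315) in CD8 T cells, 282 CPM (190 to 403) and 63.5 CPM (34.7 to 107) in other T cells, and 100 CPM (76.3 to 130) and 119 CPM (76.9 to 175) in NK cells. Cd28 was at 260 CPM (218 to 309) and 251 CPM (217 to 287) in CD8 T cells and at 187 CPM (147 to 236) and 198 CPM (157 to 248) in regulatory-like cells, which overlapped in both libraries. In other T cells Cd28 was at 329 CPM (229 to 458) and 99.9 CPM (62.6 to 151). NK cells had 88.3 CPM (65.8 to 116) and 119 CPM (76.9 to 175) of Cd28, a receptor usually described on T cells.

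The interleukin-2 receptor chains differed from each other in where they were found. Il2ra, the alpha chain, was at 308 CPM (256 to 369) and 247 CPM (200 to 302) in regulatory-like cells. It was at 25.7 CPM (13.7 to 43.9) and 41.6 CPM (28.8 to 58.1) in CD8 T cells, which rests on 13 and 34 UMIs. Other T cells had 10 and 5 UMIs of Il2ra, 9 of the 10 in 1 untreated cell, and NK cells had 21 and 1 UMIs. Its regulatory-like level was apart from every other gate in both libraries, and the other gates overlapped with their neighbours in the order.

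Il2rb, the beta chain, was ordered NK, CD8, regulatory-like and other T cells in both libraries. It was at 570 CPM (510 to 635) and 760 CPM (647 to 888) in NK cells, 442 CPM (386 to 504) and 449 CPM (404 to 497) in CD8 T cells, 316 CPM (263 to 377) and 423 CPM (360 to 493) in regulatory-like cells, and 94.1 CPM (45.1 to 173) and 99.9 CPM (62.6 to 151) in other T cells. CD8 and regulatory-like cells did not overlap in the untreated library and overlapped in the NAM library. Il2rg, the common gamma chain, was the most even of the 3 chains across the gates: 292 CPM (247 to 343) and 279 CPM (244 to 317) in CD8 T cells, 326 CPM (272 to 388) and 302 CPM (249 to 361) in regulatory-like cells, 251 CPM (212 to 295) and 333 CPM (259 to 420) in NK cells, and 292 CPM (198 to 414) and 99.9 CPM (62.6 to 151) in other T cells. Neighbours in the Il2rg order overlapped except for the other T cells of the NAM library, which were lowest.

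**Figure D1:**
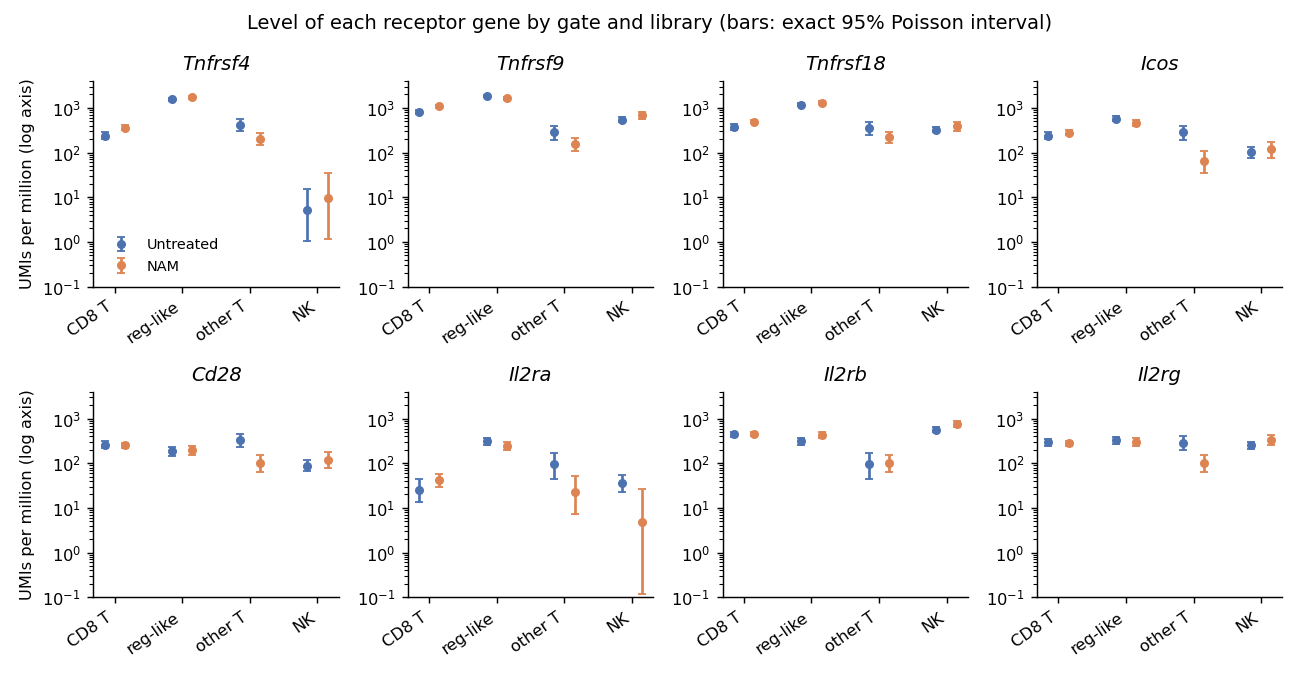
Level of each of the 8 receptor genes in 4 gates of the untreated and the NAM library, in CPM on a log axis, with exact 95% Poisson intervals. Tnfrsf4, Tnfrsf9, Tnfrsf18, Icos and Il2ra peaked in regulatory-like T cells of both libraries, Il2rb peaked in NK cells, and Tnfrsf4 fell to 3 and 2 UMIs in NK cells.

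Between gates, a gene was counted as different where it was past 2-fold the same way in both libraries with both intervals leaving out no difference. Regulatory-like cells were above CD8 T cells in 3 of the 8 genes, against 1.83% of 7112 genes. These were Tnfrsf4 (log2 2.70 untreated and 2.26 NAM), Tnfrsf18 (1.68 and 1.41) and Il2ra (3.59 and 2.57). With Ikzf2 and no Foxp3 asked of the gate, Tnfrsf18 was at 0.91 in NAM and the call ended. Tnfrsf9 and Icos were above 2-fold in the untreated library only (log2 1.19 and 0.61 for Tnfrsf9, 1.26 and 0.71 for Icos). No gene of the 8 was higher in CD8 T cells by this rule.

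Against NK cells, regulatory-like cells were higher in 5 of 8 genes, Tnfrsf4, Tnfrsf9, Tnfrsf18, Icos and Il2ra (3.04% of all genes tested). CD8 T cells were higher than NK cells in 3, Tnfrsf4, Icos and Cd28 (1.99% of all genes). Of these calls, 3 ended under 1 alternative each: Tnfrsf9 of regulatory-like over NK cells (0.98 in NAM with Ikzf2 and no Foxp3 asked of the gate), Icos of CD8 T over NK cells (0.91 untreated without cells over 15000 UMIs) and Cd28 of CD8 T over NK cells (0.93 in NAM when NK cells were to lack every Cd3 gene). The Tnfrsf4 ratio of regulatory-like over NK cells stands on 3 and 2 NK UMIs and was log2 8.22 and 7.51. The Cd28 ratio over NK cells was 1.56 and 1.08 on the log2 scale for CD8 T cells and 1.09 and 0.74 for regulatory-like cells. Against other T cells, regulatory-like cells were higher in 6 genes, all but Cd28 and Il2rg (3.09% of all genes), and CD8 T cells in Tnfrsf9 and Il2rb (2.02%). Other T cells were above NK cells in Tnfrsf4 and below them in Il2rb (4.3% of all genes were called in either direction). Counts against other T cells moved with the way that gate was drawn: with 2 or more Cd3e UMIs asked of a T cell, 2 genes in place of 6 separated regulatory-like from other T cells.

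Within the regulatory-like gate, cells with a Foxp3 UMI (39 and 35) were set against cells with an Ikzf2 and no Foxp3 UMI (31 and 32). Foxp3 encodes the factor that defines regulatory T cells, and Ikzf2 encodes Helios, which other T cells can express as well. Here an Ikzf2 UMI was also found in 39.6% and 50.7% of CD8 T cells and in 48.75% and 45% of NK cells. Cd4 was found in 42.9% and 37.3% of the regulatory-like cells. An Ikzf2 UMI alone thus does not mark a cell as regulatory. Tnfrsf4 was at 1934 and 2308 CPM in Foxp3 cells of the untreated and NAM library and at 919 and 878 CPM in the others, log2 1.07 (0.79 to 1.36) and 1.39 (1.12 to 1.67). Il2ra was at 406 and 342 CPM against 144 and 108 CPM, 2.82-fold and 3.16-fold, with log2 intervals of 0.81 to 2.25 and 0.89 to 2.51. Those 2 were past 2-fold in both libraries, as were 0.856% of 4437 genes. Icos had log2 1.10 and 0.89, Tnfrsf9 0.93 and 0.47 and Tnfrsf18 0.32 and 0.76, each with intervals above 0. Cd28, Il2rb and Il2rg had intervals that included 0 in both libraries. Cells without Foxp3 UMIs still had Tnfrsf4 above the CD8 T level in both libraries. Foxp3 is detected in a share of the cells that express it, so cells without a Foxp3 UMI are not cells shown to lack it.

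**Figure D2:**
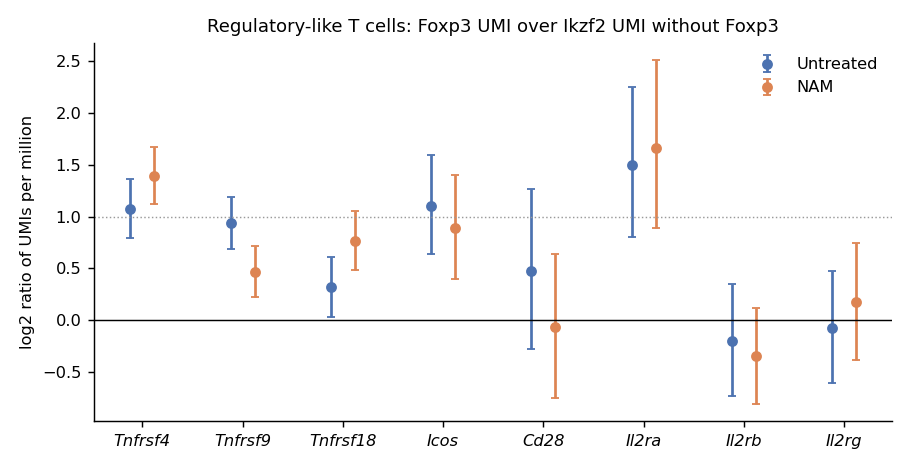
Log2 ratio of CPM between regulatory-like T cells with a Foxp3 UMI and those with an Ikzf2 UMI and no Foxp3 UMI, for each gene and library, with exact 95% counting intervals and the 2-fold line dotted. Tnfrsf4 and Il2ra lie above the line in both libraries, and Il2rb and Il2rg lie at 0 within their intervals.

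Shares of cells with a UMI were compared at equal depth, each cell being thinned to 3000 UMIs. Myeloid reference cells (no UMI of a Cd3 gene, Cd8a, Cd8b1 or Ncr1, and myeloid markers at 0.5 or more of the median share) served as a comparison, at a median depth of 9327 and 9294 UMIs before thinning. Leaving out cells with UMIs of those lymphocyte genes can also leave out cells with free lymphocyte RNA. Their shares may thus lie below the background of free RNA, and they include any expression by myeloid cells themselves. Tnfrsf4 was found in 80.0% (68.7 to 88.6) and 71.6% (59.3 to 82.0) of regulatory-like cells, 32.3% (23.1 to 42.6) and 45.4% (37.3 to 53.7) of CD8 T cells, 2.5% (0.304 to 8.74) and 5% (0.611 to 16.9) of NK cells, and 0.919% and 1.09% of myeloid cells. Before thinning these were 80.0% and 76.1%, 40.6% and 51.3%, 3.75% and 5%, and 2.45% and 2.74%. The NK intervals include the myeloid share, so Tnfrsf4 in NK cells was not told apart from it.

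Il2ra was found in 45.7% and 40.3% of regulatory-like cells, 6.25% and 9.87% of CD8 T cells, and 8.75% of untreated NK cells after thinning (57.1%, 52.2%, 8.33%, 15.1% and 15.0% before). In NAM NK cells it was found in 0 of 40 cells after thinning, which by the limit of 3 counts allows a share of cells with a UMI of up to 7.50%, and in 2.5% before. The myeloid share of Il2ra was 0.306% and 0.502% (0.919% and 1.09% before). Il2rb was in 81.3% and 90% of NK cells, 66.7% and 69.1% of CD8 T cells and 57.1% and 64.2% of regulatory-like cells, with 0.306% and 0.456% in myeloid cells. Before thinning, Il2rb was in 92.5% and 95%, 84.4% and 78.3%, and 72.9% and 82.1%, with 1.28% and 1.60% in myeloid cells. Il2rg had the highest myeloid shares of the 8 genes, 25.6% and 25.4% of cells after and 56.5% and 54.1% of cells before thinning, at 101 CPM in both libraries.

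Tnfrsf9 was in 84.3% and 83.6% of regulatory-like cells, 67.7% and 75% of CD8 T cells and 63.8% and 77.5% of NK cells, against 4.09% and 6.57% of myeloid cells (88.6% and 88.1%, 75% and 80.9%, 80.0% and 80.0%, 9.09% and 11.7% before thinning). The thinned intervals of CD8 T and NK cells overlapped in both libraries, unlike their levels. Tnfrsf18 was in 87.1% and 86.6%, 68.8% and 70.4%, and 56.3% and 67.5% of the same gates, against 0.970% and 1.46% of myeloid cells (94.3% and 91.0%, 78.1% and 80.3%, 76.3% and 75%, 3.58% and 4.24% before). Icos was in 65.7% and 56.7% of regulatory-like, 42.7% and 44.1% of CD8 T and 25.0% and 27.5% of NK cells, with at most 0.715% in myeloid cells. Cd28 was in 35.7% and 37.3%, 45.8% and 52.0%, and 30.0% and 25.0%, with at most 0.562% in myeloid cells. Before thinning Icos was in 78.6% and 68.7%, 56.3% and 63.2%, and 45.0% and 45.0%, and Cd28 in 48.6% and 58.2%, 61.5% and 63.2%, and 41.3% and 40.0%, with at most 1.74% of myeloid cells for either gene. Icos and Cd28 in the NK gate were above the myeloid shares, which may understate free RNA. The part of free RNA and of the NK-gate cells with Cd3g or Cd3d UMIs in this was not tested.

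**Figure D3:**
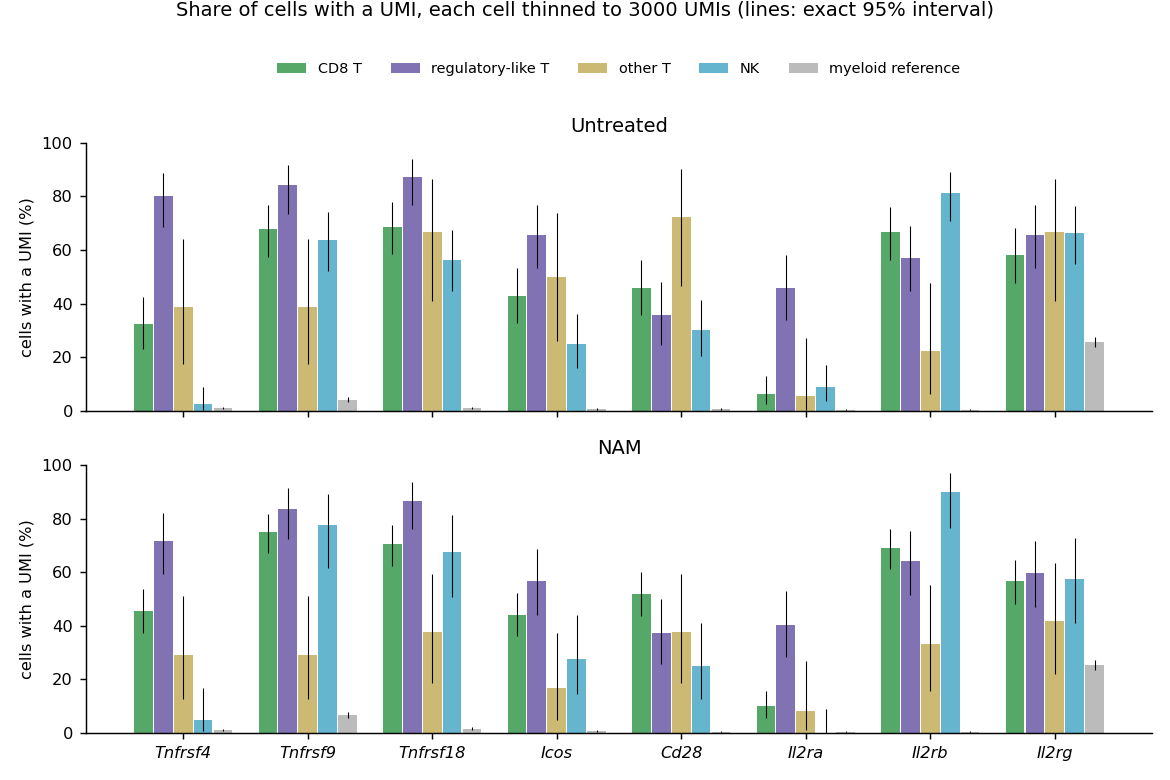
Share of cells with a UMI of each receptor gene, in percent, in the 4 gates and in myeloid reference cells, each cell thinned to 3000 UMIs, for the untreated (top) and NAM (bottom) library, with lines for exact 95% intervals. Myeloid cells stay under 7% for every gene but Il2rg, and Tnfrsf4 in NK cells is at 2.5% and 5%.

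At 3000 UMIs per cell the median regulatory-like cell carried 6 (untreated) and 5 (NAM) of the 8 genes, the median CD8 T cell 4 and 4, the median NK cell 3 and 3, the median other T cell 4 and 1.5, and the median myeloid cell 0. Transcripts of all 3 TNF receptors were found together in 72.9% and 67.2% of regulatory-like cells, 25.0% and 32.9% of CD8 T cells and 1.25% and 2.5% of NK cells. All 3 chains of the high-affinity interleukin-2 receptor were found together in 20.0% and 20.9% of regulatory-like cells, 3.13% and 5.92% of CD8 T cells and 1.25% and 0% of NK cells. Before thinning the last set was 31.4% and 37.3%, 6.25% and 10.5%, and 15.0% and 2.5%. The pair Il2rb and Il2rg, which forms the receptor without the alpha chain, was found together in 56.3% and 50% of NK cells, 37.5% and 39.5% of CD8 T cells and 38.6% and 40.3% of regulatory-like cells.

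Among regulatory-like cells, Il2ra was found in 57.1% and 54.2% of cells with a thinned Tnfrsf4 UMI (56 and 48 cells) and in 0% and 5.26% of cells without one (14 and 19 cells). For Tnfrsf18 the same shares of Il2ra were 52.5% and 46.6% with and 0% and 0% without, the latter over only 9 and 9 cells. Tnfrsf9 was in 94.6% and 97.9% of Tnfrsf4-positive and in 42.9% and 47.4% of Tnfrsf4-negative regulatory-like cells. Icos was in 80.4% and 66.7% of Tnfrsf4-positive and in 7.14% and 31.6% of Tnfrsf4-negative cells. Il2rg was in 67.9% and 64.6% of Tnfrsf4-positive and in 57.1% and 47.4% of Tnfrsf4-negative cells. Il2rb did not follow: it was in 53.6% and 62.5% of the Tnfrsf4-positive and 71.4% and 68.4% of the Tnfrsf4-negative cells. Cells of 1 library share their source, and the gate mixes Foxp3-positive and Foxp3-negative cells that differed in Tnfrsf4 and Il2ra, so these shares are a description of the gate.

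The mean difference over pairs with a value in both libraries was 8.16 percentage points in CD8 T cells and 21.4 in regulatory-like cells (28 pairs each). It was 24.8 in the few other T cells (21 pairs) and 2.00 in NK cells (18 pairs, none with Tnfrsf4), so these 2 means are over fewer pairs. The shares that follow are those of CD8 T cells. Tnfrsf9 was in 80.6% and 88.4% of cells with a Tnfrsf4 UMI and in 61.5% and 63.9% of cells without. Tnfrsf18 was in 93.5% and 79.7% of cells with and 56.9% and 62.7% of cells without. Il2rb was in 72.3% and 77.2% of CD8 T cells with a Tnfrsf9 UMI and in 54.8% and 44.7% of those without.

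**Figure D4:**
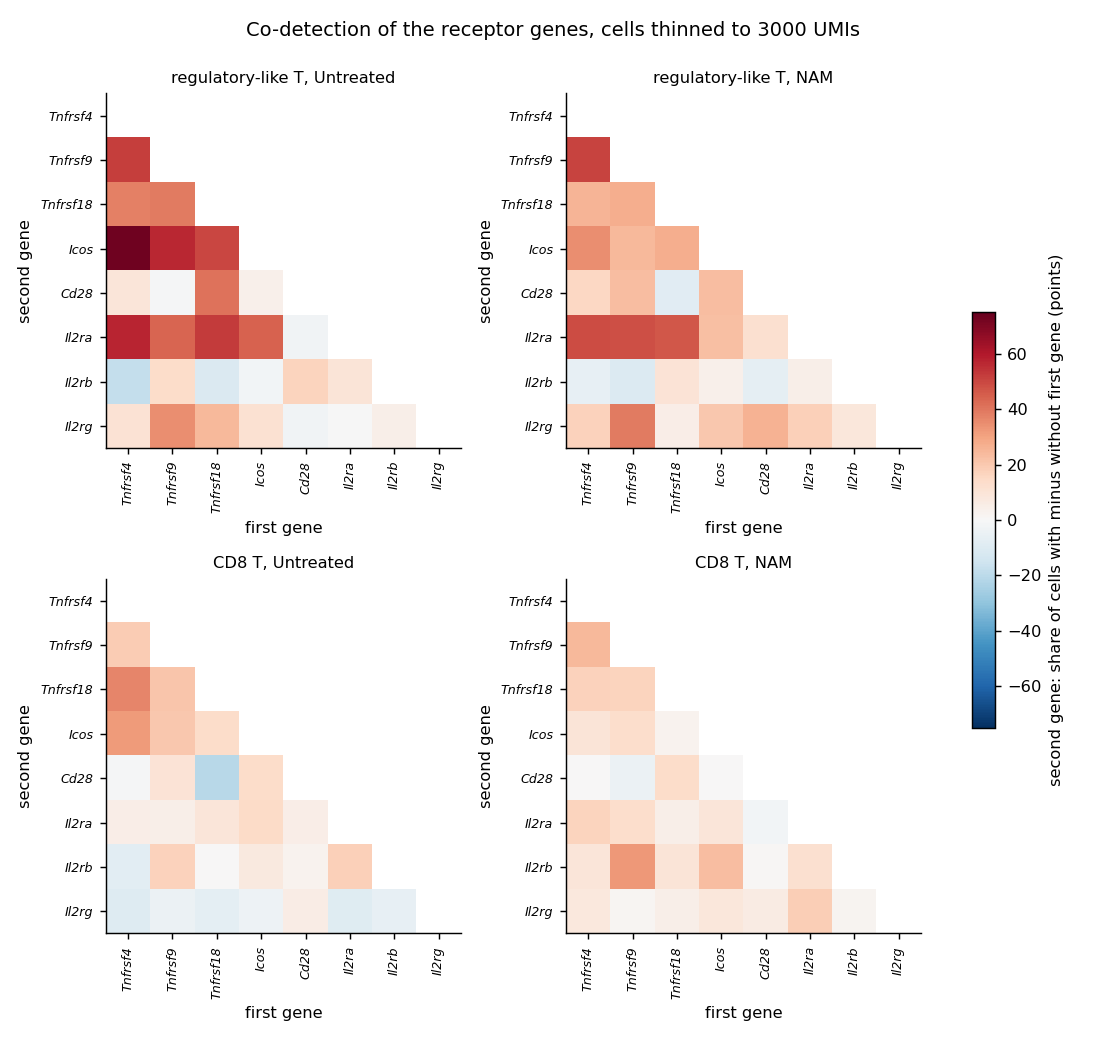
Difference, in percentage points, between the share of cells with the second gene among cells with and without the first gene, for all pairs of the 8 genes in regulatory-like T (top) and CD8 T cells (bottom) of both libraries, at 3000 UMIs per cell. The block of Tnfrsf4, Tnfrsf9, Tnfrsf18, Icos and Il2ra is positive in regulatory-like cells of both libraries, with Il2rb outside it. Il2rg is positive there with Tnfrsf4, Tnfrsf9, Tnfrsf18 and Icos too, but not with Il2ra in the untreated library (-0.16 points).

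NAM was next set against untreated within each gate. A gene with 20 or more UMIs counted as different where it was past 1.5-fold with an interval that left out 0 on the log2 scale. In CD8 T cells the 3 TNF receptor genes were higher in the NAM library and the other 5 had intervals that included 0. Tnfrsf4 rested on 121 and 295 UMIs and had a log2 ratio of 0.59 (0.28 to 0.91), 1.51-fold, just inside the limit. Tnfrsf9 (411 and 889 UMIs) had 0.42 (0.25 to 0.59), 1.34-fold, and Tnfrsf18 (187 and 405 UMIs) 0.42 (0.17 to 0.68), 1.34-fold, both under the limit. Higher by the full rule was thus 1 of 8 genes, against 3.82% of 5729 genes (8.15% in either direction). Intervals left out 0 for 3 of 8 genes, against 12.4% of all genes and 16.4% of those with 50 or more UMIs.

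The 3 TNF receptor ratios in CD8 T cells had an interval above 0 in each of the 13 other ways of gating, scaling, thinning or weighting. Of these, the ways that redraw only the regulatory-like gate (Foxp3 alone, or Ikzf2 without Foxp3) keep the same CD8 T cells. They could not move these ratios. Tnfrsf4 ranged from 0.54 to 0.78, Tnfrsf9 from 0.30 to 0.62 and Tnfrsf18 from 0.29 to 0.55. Tnfrsf4 slipped under 1.5-fold without the myeloid guard, after thinning, with each cell weighted the same and with median-of-ratios scaling. CD8 T cells of the NAM library also held more UMIs of these genes per positive cell: 3.78 against 3.10 of Tnfrsf4, 7.23 against 5.71 of Tnfrsf9 and 3.32 against 2.49 of Tnfrsf18. Beside this, the T-cell markers of the gate summed to 4849 and 5308 CPM and the myeloid markers to 1677 and 1689 CPM. The regulatory markers went from 409 to 521 CPM and the NK markers from 632 to 366 CPM. Gzma led that fall (229 to 53.8 CPM) and was found in only 5.21% and 5.26% of cells. Eomes (105 to 44.0 CPM), Txk (114 to 85.6) and Prf1 (35.5 to 20.8) were lower too, while Klre1 was higher (146 to 159). The remaining NK markers had at most 2 UMIs. Their part in the result was not tested.

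The remaining CD8 T ratios were 0.20 (-0.13 to 0.53) for Icos, -0.06 (-0.38 to 0.27) for Cd28, 0.02 (-0.22 to 0.27) for Il2rb and -0.07 (-0.37 to 0.24) for Il2rg. Il2ra had 0.70 (-0.26 to 1.74) on 13 and 34 UMIs, an interval that spans 0. The median of the 8 genes was 0.31, beside 0.02 over all genes tested in CD8 T cells.

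In regulatory-like T cells none of the 8 genes was past 1.5-fold, against 8.23% of 4437 genes, and 3 of 8 intervals left out 0, against 12.8% of all genes. Icos (225 and 175 UMIs) had -0.36 (-0.65 to -0.07), Tnfrsf9 (721 and 643 UMIs) -0.16 (-0.32 to -0.0048) and Il2rb (123 and 164 UMIs) 0.42 (0.07 to 0.77). Icos was lower in the NAM library and Il2rb higher. Tnfrsf4 had 0.15 (-0.0063 to 0.32), Tnfrsf18 0.15 (-0.03 to 0.34), Cd28 0.08 (-0.40 to 0.56), Il2ra -0.32 (-0.72 to 0.08) and Il2rg -0.11 (-0.49 to 0.26). The sign of the Tnfrsf9 ratio was the opposite in cells with Ikzf2 and no Foxp3 UMI, at 0.19. The median of the 8 genes was -0.016, beside 0.0050 over all genes tested. The Icos interval stayed below 0 in 12 of 13 alternatives (-0.50 to -0.17), the Tnfrsf9 interval left out 0 in 8 and the Il2rb interval in 5.

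In NK cells Il2rb (329 and 160 UMIs) had a log2 ratio of 0.42 (0.13 to 0.69) and Tnfrsf9 (316 and 144 UMIs) of 0.32 (0.03 to 0.61), both under 1.5-fold. Il2ra fell from 21 UMIs in 12 of 80 cells to 1 UMI in 40 cells, a log2 ratio of -2.94 (-8.31 to -0.30), and 8 of the 21 untreated UMIs were in 1 cell. It was the 1 gene of 7 with enough UMIs past the limit (6.57% of 4295 genes were lower by this rule and 9.8% in either direction), but too few UMIs were left to compare it after thinning or without the 5 cells with most of them, and its interval included 0 when NK cells were to lack every Cd3 gene. Intervals left out 0 for 3 of 7 genes, against 13.4% of all genes. Tnfrsf18 had 0.23 (-0.16 to 0.62), Icos 0.24 (-0.50 to 0.94), Cd28 0.43 (-0.32 to 1.15) and Il2rg 0.41 (-0.03 to 0.83). After thinning the median of the NK ratios was -0.14 in place of 0.33, and Il2rb had 0.23 (-0.16 to 0.61). Without the myeloid guard Il2rb was at 0.04 and Tnfrsf9 at -0.0093, both with intervals that included 0. The NK markers moved with them, from 4251 to 7314 CPM, a sum led by Gzma (2651 to 5247 CPM), with Eomes at 98.7 and 90.3 CPM, while the myeloid markers of the gate went from 2596 to 1269 CPM; their part in the result was not tested.

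In other T cells 6 of 7 genes with enough UMIs were past 1.5-fold lower in the NAM library, against 8.34% of 2171 genes, and the same 6 intervals left out 0, against 26.8%. Icos went from 282 to 63.5 CPM (log2 -2.15, -3.18 to -1.19) and Cd28 from 329 to 99.9 CPM (-1.72, -2.56 to -0.91). Il2rg had -1.55, Tnfrsf4 -1.05, Tnfrsf9 -0.87 and Tnfrsf18 -0.71, and Il2rb 0.09 (-1.05 to 1.33). The UMIs of Tnfrsf4 (44 and 44), Tnfrsf9 (30 and 34) and Tnfrsf18 (38 and 48) did not fall, while all UMIs of the gate went from 106314 to 220325. Only Icos kept an interval below 0 in all 13 alternatives. Without cells of more than 15000 UMIs the median went from -1.05 to -0.017, 2 genes were past the limit, and Tnfrsf9 and Tnfrsf18 turned to 0.29 and 0.40. Cd3d, a T-cell gene, went from 828 to 368 CPM in the same cells, the neutrophil markers from 141 to 477 CPM and the type 2 innate lymphoid markers from 1025 to 13.6 CPM (the untreated sum being led by Il13, with 85 UMIs in 11.1% of the 18 cells). Their part in the result was not tested. Median-of-ratios scaling moved every ratio in this gate by 0.20 (down) and those of the other gates by less than 0.1.

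**Figure D5:**
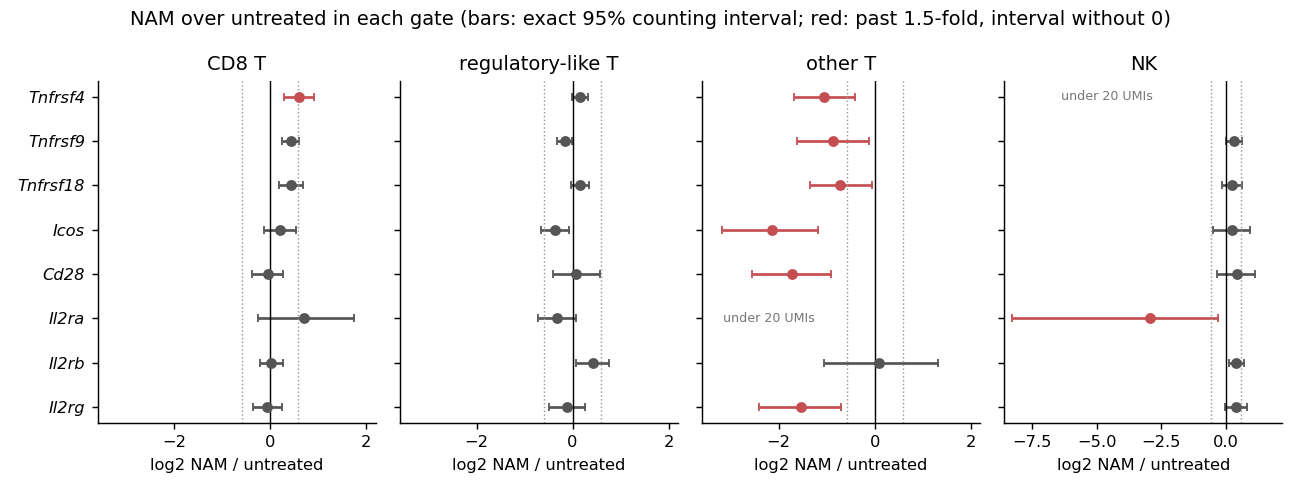
Log2 ratio of CPM, NAM over untreated, for each gene in each gate, with exact 95% counting intervals, dotted lines at 1.5-fold and red where a gene is past them with an interval without 0. In CD8 T cells the 3 TNF receptor genes lie right of 0, in regulatory-like cells no gene passes the line, and in other T cells 6 genes lie left of it. The NK panel has a wider axis.

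Outside the gates, Tnfrsf9 was also present in myeloid cells and dendritic cells. In 1958 and 2192 myeloid reference cells it had 451 and 960 UMIs, 23.1 CPM (21.0 to 25.3) and 44.8 CPM (42.0 to 47.7), a log2 ratio of 0.95 (0.79 to 1.12). Cd28 had 34 and 18 UMIs there, -1.05 (-1.96 to -0.19), and these were the 2 of 8 past 1.5-fold with an interval without 0 (6.58% of 11858 genes were). In mature dendritic-like cells with Ccr7 and Fscn1 UMIs (24 and 17 cells), Tnfrsf9 was at 148 and 254 CPM and Il2ra at 42.9 and 120 CPM (11 and 17 UMIs), 2 of 3 genes with enough UMIs, against 5.92% of 2499 genes higher. There, 5 cells held 89.5% and 88.9% of the Tnfrsf9 UMIs.

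Of the ligands, Tnfsf9 and Cd86 had the most UMIs in myeloid cells. Tnfsf9, the ligand of 4-1BB, was at 121 and 113 CPM in myeloid cells, and Cd86, a ligand of CD28, at 146 and 172 CPM there and at 398 and 169 CPM in mature dendritic-like cells. Il15 was at 20.1 and 19.5 CPM and Icosl at 12.1 and 8.81 CPM in myeloid cells. Tnfsf18 and Il7 had at most 20 UMIs in any of these groups. Il2 itself had 3 and 4 UMIs in CD8 T cells, 6 and 4 in regulatory-like cells and 17 and 0 in other T cells, and it had 149 and 160 UMIs in myeloid cells (7.63 and 7.46 CPM). Of the 9 ligands, 4 had enough UMIs in CD8 T cells, and 1 of them, Tnfsf9, was past the limit (53.3 to 26.9 CPM, log2 -0.99, -1.87 to -0.12), against 8.15% of all genes in CD8 T cells.

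Of the 5 other chains that pair with the common gamma chain, 4 could be compared in CD8 T, 3 in regulatory-like, 1 in other T and 2 in NK cells, and 1 in each gate was past the limit (8.15%, 8.23% and 9.8% of all genes in CD8 T, regulatory-like and NK cells, and 8.34% lower in other T cells). Il7r, the interleukin-7 receptor, was higher in NAM in CD8 T cells (51.3 to 86.8 CPM, 0.76, 0.09 to 1.47) and lower in regulatory-like cells (131 to 56.7 CPM, -1.21, -2.00 to -0.46) and other T cells (-1.35, -2.53 to -0.20). Il4ra was higher in NK cells (43.3 to 95.1 CPM, 1.13, 0.21 to 2.04). Of 16 genes of interleukin-2 receptor signalling, 12 could be compared in CD8 T cells, where Stat5b, the transcription factor downstream of the receptor, went from 51.3 to 24.4 CPM (-1.07, -1.99 to -0.17) and Grb2, an adaptor, from 140 to 81.9 CPM (-0.77, -1.28 to -0.27), against 8.15% of all genes. Grb2 was also lower in regulatory-like cells (-0.64, 1 of 14 genes, against 8.23% of all genes), NK cells (-1.11) and other T cells (-1.69), where Lck was lower too (-0.97, 2 of 8 genes, against 8.34% of all genes lower). In NK cells 3 of 13 were higher (Bcl2, 0.79; Pim1, 0.68; Lck, 0.61) and 2 lower (Grb2 and Cish, a feedback inhibitor, -1.43 on 37 and 5 UMIs), against 9.8% of all genes in either direction. The list medians were 0.02 in CD8 T, -0.24 in regulatory-like T and 0.18 in NK cells.

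Of 21 genes of costimulation signalling, 20 could be compared in CD8 T cells, with Nfkb1 (184 to 116 CPM, -0.66, -1.09 to -0.23) and Pik3cd (63.2 to 20.8 CPM, -1.60, -2.54 to -0.71) lower and none higher (8.15% of all genes in either direction). Nfkb1, which encodes an NF-kB subunit, was lower in regulatory-like cells too (-0.76, -1.28 to -0.26), along with Nfkb2 (-0.81, 2 of 14 genes, against 8.23% of all genes), in other T cells (-2.37, -3.47 to -1.37) and in NK cells (-1.15, -1.87 to -0.49), where Vav1 was higher (1.04; 2 of 16 genes, against 9.8% of all genes). The list medians were -0.04, -0.26 and 0.12 in CD8 T, regulatory-like and NK cells. Of 13 other costimulatory receptors, none of 10 and none of 9 passed the limit in CD8 T and regulatory-like cells, Cd226, Cd2 and Cd69 were higher in NK cells (3 of 5, against 9.8% of all genes in either direction), and Cd27, Cd2, Cd6 and Ctla4 were lower in other T cells (4 of 5, against 8.34% of all genes lower). Between gates, Ctla4 (434 and 536 CPM against 134 and 175 CPM), Cd2 and Cd5 were higher in regulatory-like than in CD8 T cells, 3 of 11 genes of that list, and Pim1 was, 1 of 15 genes of the interleukin-2 receptor list (1.83% of all genes were higher). Crtam, 1 of the same 11, and Tnfsf4, 1 of 4 ligands, were lower. Tnfsf4 had 1 and 0 UMIs in regulatory-like cells. The share of all genes lower is not given here, so these 2 are a description. CD8 T cells were above NK cells in Cd27, Cd5, Cd6 and Ctla4, 4 of the same 11, and in Il7r and Il21r, 2 of 4 other gamma chain partners (1.99% of all genes).

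For each gene the others most like it were ranked by Pearson correlation of log2(CPM + 10) over the 8 values of 4 gates and 2 libraries, among 3826 genes with 100 or more UMIs. Tnfrsf4 was closest to Sdf4 (0.97), Bmyc (0.97) and Ctla4 (0.97), and Tnfrsf18 to Tecr (0.97), Fam110a (0.97) and Foxp3 (0.96, a gate gene). Sdf4 ends 232 bases before the GENCODE start of Tnfrsf4 on the same strand, and it was at 643 and 909 CPM in CD8 T cells, 1264 and 1162 CPM in regulatory-like cells and 165 and 157 CPM in NK cells. Tnfrsf9 was closest to Gimap3 (0.98), Cnot11 (0.98) and H2afv (0.97), Icos to Sf3b1 (0.98), Hif1a (0.98) and Areg (0.97), and Cd28 to Zdhhc3 (0.97) and, less closely, Spty2d1 (0.94). Il2ra was closest to Fam46a (0.97), Batf (0.95) and l7Rn6 (0.94), Il2rb to Gem (0.98), Ppp1r3b (0.98) and Gpr18 (0.97), and Il2rg to Ankrd17 (0.99), Katna1 (0.98) and Ankrd12 (0.97). The 8 points share 2 libraries and the same gated cells, so these values are a description.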

How the data were processed

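The deposited UMI counts came from 10x Single Cell 3′ v2 chemistry, processed by the authors with Cell Ranger against mm10. They were whole numbers without normalisation, from 3001 UMIs per cell upward. The annotation used for counting is not given in the sources used here. The 8 genes, the gates and the lists were chosen with earlier results of these data known.

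Gates used UMIs of Cd3e, Cd8a, Cd8b1, Ncr1, Foxp3 and Ikzf2, and asked that 8 myeloid markers make up less than 0.869% of a cell's UMIs, 0.25 times the median over all cells. This guard removed 129 cells with a Cd3e UMI and 24 with an Ncr1 and no Cd3e UMI. Cells with both Cd3e and Ncr1 UMIs (11 and 19) entered no gate. Doublets were not called. Counts were summed per gate and library and scaled to 1e+06. Intervals are exact 95% Poisson (levels), Clopper-Pearson (shares) and conditional binomial (ratios). Medians used a pseudocount of 0.5 UMIs. A count of 0 was read as allowing up to 3. Thinning to 3000 UMIs (seed 1) left out 0 cells. Of 68 markers, 8 had no matching symbol, most of them T-cell receptor constant genes. Named genes were the 8 receptors, for each the 3 most alike, and list genes past the limit. Under this rule 1 result is not reported here. Alternatives covered the gates, the guard, thinning, cell weights, scaling, the UMI minimum and left-out cells. Columns of per-sample values left unused numbered 0. Libraries held 29161823 and 32090120 UMIs in 2922 and 3276 cells. The interval code was tested on simulated data. Python 3.11.15, NumPy 2.4.6, SciPy 1.17.1, pandas 2.3.3 and matplotlib 3.10.9 were used. Positions are from GENCODE vM21, promoter windows from RefSeq, which held 5 of the 8 genes.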

Additional observations from a re-analysis of the deposited data

Results flagged for a closer look

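With 1 library per group, none of the differences below was tested against variation between mice or libraries; they are given because the ratio of NAM over untreated went opposite ways in 2 gates with counting intervals on opposite sides of 0, or because a change appeared in cells outside the 4 gates.

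The log2 ratio of Tnfrsf9 was 0.42 in CD8 T cells, 0.32 in NK cells and -0.16 in regulatory-like T cells, all under 1.5-fold, and -0.87 in other T cells. Without the myeloid guard the NK ratio was -0.0093, and the regulatory-like interval left out 0 in 8 of 13 alternatives. The gaps were 0.58 between CD8 T and regulatory-like cells, 1.29 between CD8 T and other T cells, 0.48 between NK and regulatory-like cells and 1.19 between NK and other T cells. The gap to other T cells depends on cells with more than 15000 UMIs, without which Tnfrsf9 stood at 0.29 there. The same holds for Tnfrsf18, 1.14 apart between CD8 T (0.42) and other T cells (-0.71). Tnfrsf4 was 1.65 apart between CD8 T (0.59) and other T cells (-1.05). In other T cells it rests on 44 and 44 UMIs in 7 and 7 cells, over gate totals of 106314 and 220325 UMIs. Its interval there left out 0 in 7 of 13 alternatives, and the ratio was -0.0018 with 2 or more Cd3e UMIs.

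Outside the gates, Tnfrsf9 had a log2 ratio of 0.95 in myeloid reference cells and 0.78 in mature dendritic-like cells, and Il2ra one of 1.48 in the latter, on 11 and 17 UMIs. In cells with both Cd3e and Ncr1 UMIs (11 untreated and 19 NAM cells), the log2 ratio was 3.55 for Tnfrsf4 (2 untreated and 37 NAM UMIs, 23 of the 37 in 1 cell) and 1.34 for Tnfrsf9 (23 and 92 UMIs).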

How the results depend on the processing

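Each ratio was recomputed under 13 alternatives, of which 2 (Ikzf2 without Foxp3 for the regulatory-like gate, and leaving out cells of more than 15000 UMIs) were added after the data were seen. No paired analysis was possible because each group has 1 library. Intervals for equal cell weights and for left-out top cells are approximate. All 8 sign changes of a called ratio were in other T cells: Tnfrsf18 at 0.38 with 2 or more Cd3e UMIs, 0.0097 with any Cd3 gene, 0.23 thinned, 0.35 with equal weights and 0.40 without cells over 15000 UMIs, and Tnfrsf9 at 0.49, 0.37 and 0.29 under the last 3.

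The median of other T cells moved from -1.05 to -0.59 without the guard, -0.10 with 2 Cd3e UMIs, -0.36 with any Cd3 gene, -0.60 with Foxp3 alone, -0.088 thinned, -0.36 with equal weights, -0.47 without the top 2.5% of cells and -0.017 without cells over 15000 UMIs. The NK median was -0.14 thinned. The count of genes past 1.5-fold in other T cells went from 6 to 1 with 2 Cd3e UMIs, 3 without the top 2.5% and 2 with any Cd3 gene, thinned, without the 5 top cells or without cells over 15000 UMIs. In CD8 T cells it went from 1 to 0 without the guard, thinned, with equal weights or with median-of-ratios scaling, and to 3 without the 5 top cells. In NK cells it went from 1 to 0 with any Cd3 gene, thinned, without the 5 top cells or at a minimum of 50 UMIs. Between gates, the count of 2 for CD8 against other T cells became 7 without the guard, 0 with 2 Cd3e UMIs or Foxp3 alone, 6 with any Cd3 gene, 1 thinned or without cells over 15000 UMIs and 4 without the 5 top cells. The count for other T against NK cells became 4 without the guard, with 2 Cd3e UMIs or without cells over 15000 UMIs, and 5 with any Cd3 gene, and that for regulatory-like against other T cells 2 with 2 Cd3e UMIs. The cause of these moves was not tested. The counts for regulatory-like against CD8 T or NK cells and for CD8 T against NK cells stayed within 1.5 times of 3, 5 and 3 in all 13. Alternatives that redraw only the regulatory-like gate keep the same CD8 T and NK cells, so they could not move the last of these counts. Counts of Il2ra outside regulatory-like cells (1 to 34 UMIs) and of Tnfrsf4 in NK cells (3 and 2) were low, and their intervals are wide.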

Other observations

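Cells with both Cd3e and Ncr1 UMIs entered no gate. Il2rb stood at 850 and 694 CPM in 11 untreated and 19 NAM cells, above the CD8 T level, and Il2rg at 274 and 286 CPM. Tnfrsf18 was at 288 and 442 CPM, Icos at 110 and 147 CPM and Cd28 at 164 and 156 CPM.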
